A study of Homo sapiens with 6 samples.

Results

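The transcripts described here are those of 6 caspases (CASP1, CASP4, CASP5, CASP2, CASP9 and CASP6), of APAF1, the scaffold that activates CASP9, and of XIAP, a protein that blocks caspases. They were measured in U937T:PLZF-RARa cells, a derivative of the human monocytic leukaemia line U937 in which taking tetracycline out of the medium turns on PLZF-RARA, the fusion of the zinc finger protein PLZF (ZBTB16) with the retinoic acid receptor RARA found in a rare acute promyelocytic leukaemia. The 3 induced samples were washed in PBS and kept without tetracycline for 48 h. The 3 uninduced samples carry the same time in their titles, while their source field places them before induction, and they stayed in tetracycline. All media held puromycin and G418. Induced and uninduced cells thus differed in the antibiotic and the washes as well as in the fusion, and these cannot be told apart. Nothing in the labels tells whether replicates were separate cultures or whether the line is 1 clone, so a p-value here covers the variation among these 6 arrays and no more. Each RNA went onto its own Affymetrix HGU133Plus2.0 array, and precision is set by how few arrays there are.

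The 8 genes were picked with earlier results of these data known, and their probe sets by annotation: every probe set for which the platform annotation gives a single symbol that is 1 of the 8 names. This gave 30 of the 54613 probe sets that are not controls. Values are log2 intensities made by GCRMA, which gives dim probe sets much the same low value on every array. Testing needed a log2 value over 4 on at least 3 of the 6 arrays, which 20 of the 30 had, from 7 of the 8 genes, among 20552 in all. "Rose", "higher", "fell" and "lower" are used of probe sets with a Benjamini-Hochberg adjusted p under 0.05 over all 20552 (limma). Only CASP6 of the 8 is classed as an executioner caspase; CASP2 and CASP9 are initiators, so the group is better read as inflammatory caspases plus the arm of apoptosis that runs through the mitochondria.

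Caspases are proteases that cut proteins after aspartate and are made as inactive precursors. CASP1, CASP4 and CASP5 serve inflammation: CASP1 is activated in inflammasomes and matures the cytokines IL-1 beta and IL-18, while CASP4 and CASP5 sense bacterial lipopolysaccharide inside the cell, and all of them can lead to pore formation by gasdermin D. In apoptosis, cytochrome c released from mitochondria binds APAF1, the assembled apoptosome activates CASP9, and CASP9 activates the executioners, a step that XIAP can block. Since precursors wait for activation, a transcript level says nothing about protease activity, which was not measured.

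No probe set is annotated to the fusion itself, so its parts were looked at first. The RARA probe set 211605_s_at read 7.73, 7.62 and 7.40 in induced samples, against 1.99, 1.81 and 1.82 in uninduced samples, at least 12.0-fold higher when the uninduced level is set at the filter (limma, adjusted p = 1.90e-07). Another RARA probe set, 203749_s_at, was lower (4.02, 3.95 and 4.01 in induced and 5.15, 5.24 and 5.08 in uninduced samples). RARA 203750_s_at and 216300_x_at differed by -0.22 and -0.12 without passing (limma, adjusted p = 0.133 and 0.301). ZBTB16 205883_at was lower (3.08, 2.84 and 3.96 in induced and 5.49, 5.19 and 5.08 in uninduced samples). Array pairs correlated at r = 0.996 to 0.998 within groups and 0.932 to 0.938 between groups, and the upper quartile of the log2 values was 7.14 to 7.18 in induced samples and 6.92 to 7.13 in uninduced samples, the lowest being uninduced replicate 3. Of 8 myeloid marker genes with a probe set 7 were measured, of which 6 fell and CD4 rose (203547_at, 0.24; limma, adjusted p = 0.0318), and MPO was below the filter. Their summed level was lower after induction (log2 14.1 to 14.2 in induced and 15.6 to 15.7 in uninduced samples). T cell and erythroid markers had no tested probe set. Of the B cell markers, PAX5 221969_at was tested and did not pass (-0.14; limma, adjusted p = 0.128), and CD79B 205297_s_at, not tested, read 3.91, 4.20 and 4.25 in induced and 3.16, 2.31 and 2.95 in uninduced samples. These sums took each gene by its brightest probe set over the 6 arrays. For epithelial and fibroblast markers the sum was 8.12 to 8.23 in induced and 8.55 to 8.63 in uninduced samples. COL1A1 entered it by 217430_x_at, which was lower (7.71 in induced and 8.26 in uninduced samples). Left out of the sum were 2 COL1A1 probe sets that were higher, among them 1556499_s_at (9.09 ± 0.17 in induced and 2.36 ± 0.01 in uninduced samples, SD, n = 3 each). The sum therefore does not show that the list as a whole fell. KRT8 209008_x_at did not pass. In bulk RNA, fewer cells of a type and less RNA per cell cannot be told apart. The part of these shifts in the caspase results was not tested.

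Of the 20 tested member probe sets, 19 rose on induction, 0 fell and 1 did not pass the test. Over all tested probe sets 34.6% were called higher and 27.9% lower. The median difference of the 20 was 0.63 on the log2 scale, against 0.03 for all tested probe sets. Induced arrays lay above all uninduced arrays in the 19 that rose, a pattern seen in 38.9% of all tested probe sets. Counted with the brightest tested probe set of each gene, 7 of 7 measured genes rose, where 35.8% of all measured genes did. Most of the rises were modest: 17 of the 19 lay between 0.45 and 1.11, and a difference at least as large as the smallest of the 19 was found in 26.3% of all tested probe sets.

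**Figure D1:**
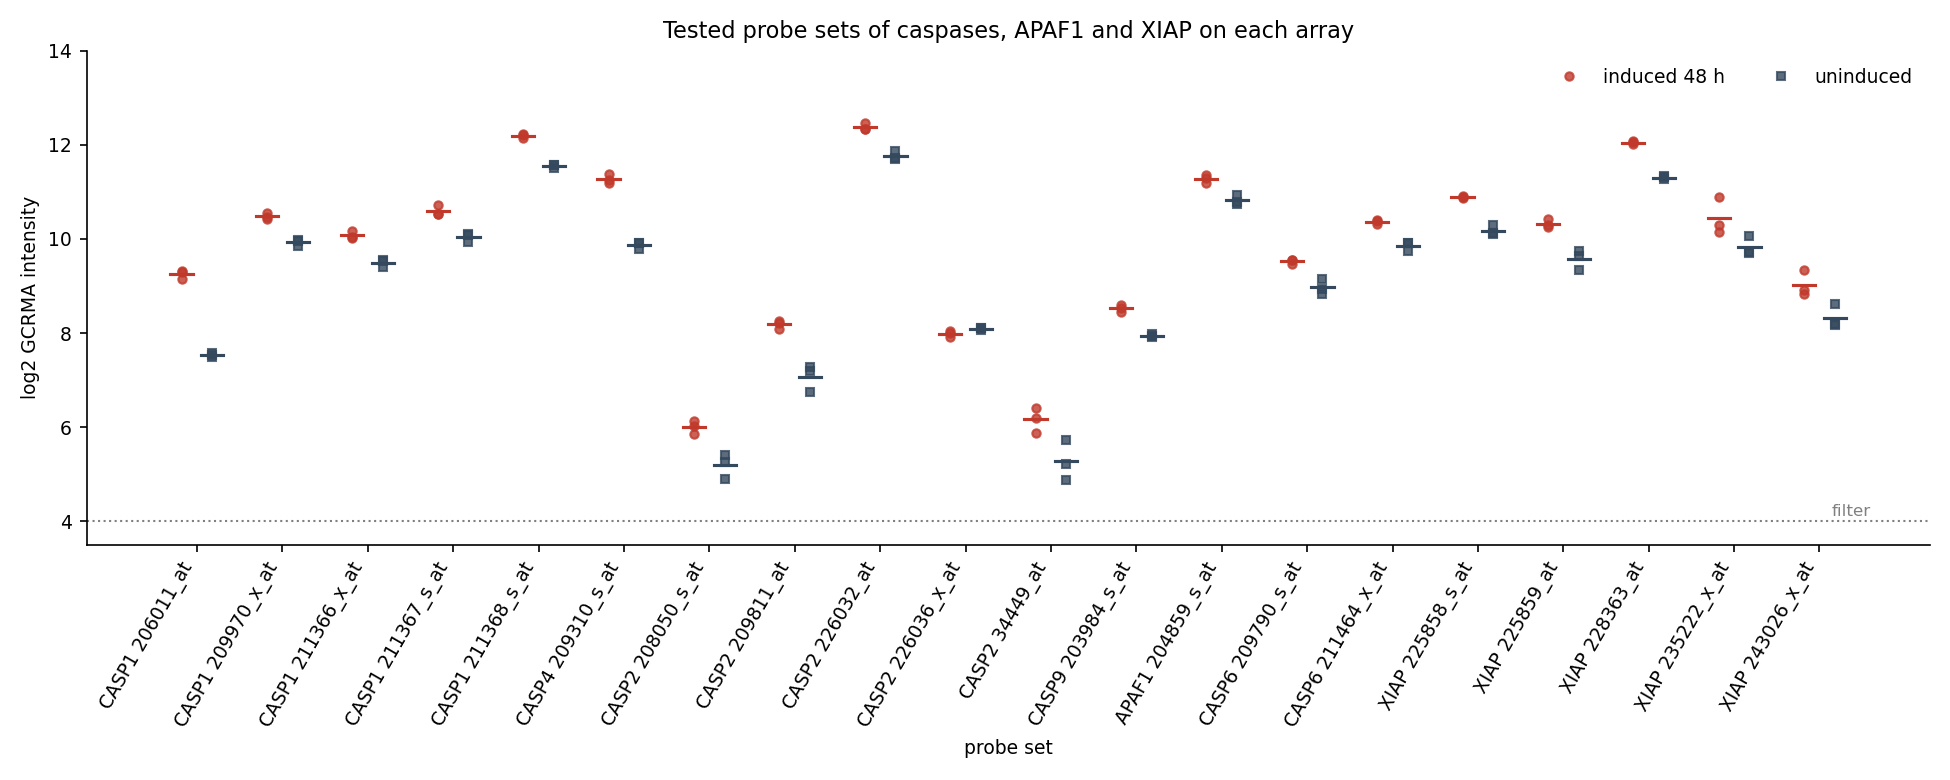
Log2 GCRMA intensity of the 20 tested probe sets on each array, with induced samples (red circles, left of each pair), uninduced samples (dark squares, right) and group means as bars. In 19 of the 20 every induced array lies above every uninduced one; the exception is CASP2 226036_x_at.

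**Figure D2:**
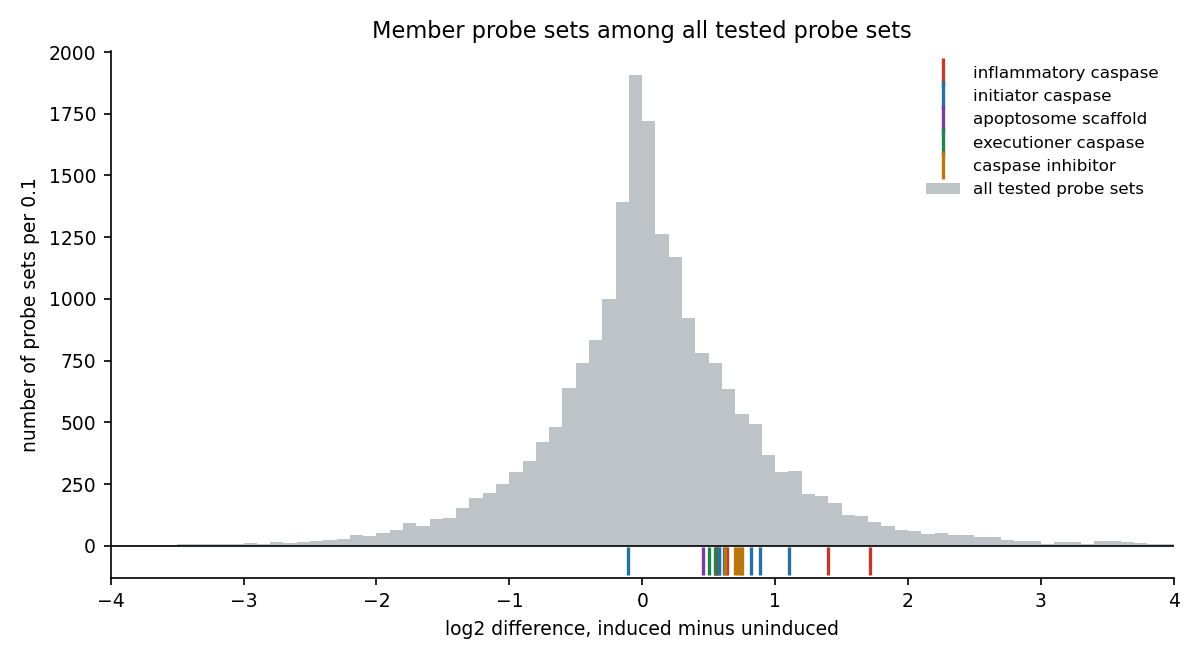
Histogram of the log2 difference, induced minus uninduced, over all tested probe sets in bins of 0.1, with the 20 member probe sets as coloured ticks under it; 115 probe sets lie outside the drawn range of -4 to 4. CASP1 206011_at (1.72) and CASP4 209310_s_at (1.40) are the ticks farthest to the right.

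CASP1, the inflammasome protease, rose in 5 of 5 probe sets, but by unequal amounts. The probe set 206011_at read 9.31, 9.14 and 9.30 in induced samples, against 7.57, 7.53 and 7.50 in uninduced samples. The groups were far apart next to their spread, with a difference of 1.72 ± 0.07 (SE; 95% interval 1.55 to 1.88), 3.29-fold (limma, adjusted p = 2.97e-06), and 3.98% of all tested probe sets rose more. The brightest CASP1 probe set, 211368_s_at, read 12.20, 12.16 and 12.23 in induced samples, against 11.57, 11.58 and 11.51 in uninduced samples. Its difference was 0.64 ± 0.06 (SE; 95% interval 0.50 to 0.78; limma, adjusted p = 8.74e-05), and 209970_x_at, 211366_x_at and 211367_s_at differed by 0.55 to 0.58. Relative to the mean of the other 4, 206011_at lay at -1.58 ± 0.11 in induced and -2.72 ± 0.04 in uninduced samples (SD, n = 3 each), a log2 difference of 1.14 that is given as a description, since the probe set was picked for it. The fold of CASP1 thus ranged between 1.47 and 3.29 over its probe sets. Their positions in the transcript were not analysed.

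CASP4, a sensor of cytosolic lipopolysaccharide, rose in the 1 probe set that was tested. It read 11.37, 11.26 and 11.19 in induced samples, against 9.92, 9.92 and 9.80 in uninduced samples (209310_s_at). The groups did not overlap, and the difference of 1.40 ± 0.074 (SE) was 2.63-fold (limma, adjusted p = 7.95e-06), larger than in all but 6.11% of tested probe sets. The second CASP4 probe set, 213596_at, was below the filter at 3.13, 3.44 and 2.75 in induced and 2.60, 2.71 and 2.70 in uninduced samples and was not tested. CASP5, the close relative of CASP4 with the same sensing role, has 1 probe set, 207500_at. It read 3.60, 3.53 and 3.55 in induced samples and 3.55, 3.56 and 3.59 in uninduced samples, in overlapping groups below the filter, and was not tested.

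CASP4 and CASP5 lie close together on the chromosome and their promoters are alike, while only CASP4 had signal above the filter; the 2 windows are shown for that contrast. Both are RefSeq sequences of GRCh38.p14, minus strand, from 250 bases before to 50 after the annotated start, chr11:104968525-104968824 for CASP4 and chr11:105023119-105023418 for CASP5. In a global alignment 215 of 320 columns (67.2%) were identical. Capitals mark matches, on either strand, to the core of the interferon-stimulated response element (GAAA, any 2 bases, GAAA), TTCNNNGAA, bound by STAT factors, GAGGAAGT, bound by PU.1, or AGGTCA, the repeat unit of retinoic acid receptor elements.
CASP4: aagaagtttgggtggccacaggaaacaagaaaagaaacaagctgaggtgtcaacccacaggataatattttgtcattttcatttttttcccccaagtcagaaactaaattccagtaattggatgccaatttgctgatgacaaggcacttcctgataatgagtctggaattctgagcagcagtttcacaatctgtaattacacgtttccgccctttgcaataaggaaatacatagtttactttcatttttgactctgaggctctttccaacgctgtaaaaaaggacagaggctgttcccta
CASP5: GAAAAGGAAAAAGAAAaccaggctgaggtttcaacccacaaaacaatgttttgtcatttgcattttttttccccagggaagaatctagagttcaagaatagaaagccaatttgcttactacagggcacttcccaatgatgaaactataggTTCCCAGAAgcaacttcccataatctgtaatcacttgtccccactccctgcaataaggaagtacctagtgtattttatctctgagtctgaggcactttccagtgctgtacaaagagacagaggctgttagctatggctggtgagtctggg
The CASP5 window held 2 overlapping interferon element matches and 1 TTCNNNGAA match, and the CASP4 window held none of the 4 motifs. Over 35116 RefSeq promoter windows of this length the interferon element was found in 3.57%, TTCNNNGAA in 7.66%, GAGGAAGT in 2.59% and AGGTCA in 13.8%. A match is a string of letters, not a bound site.

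Along chromosome 11 the order of genes is CASP12, CASP4, CASP5, CASP1, CARD16 and CARD18, counting protein-coding genes and CASP12 only. Signal in this cluster was found in 3 of these 6. CARD16, a short relative of CASP1 that consists of its recruitment domain and restrains CASP1 activation, read 10.92, 10.95 and 10.86 in induced samples, against 9.12, 9.16 and 9.02 in uninduced samples (1552701_a_at). The difference was 1.81 ± 0.07 (SE), 3.52-fold (limma, adjusted p = 1.91e-06). CARD16 is close in sequence to the start of CASP1, and whether probe sets of either gene also bind the other transcript was not tested here. CASP12 and CARD18 lay below the filter on all arrays, at no more than 2.94 and 2.14. Beyond the cluster, MSANTD4 (227418_at) differed by -0.58 and AASDHPPT by -0.48 and -0.68 in its 2 tested probe sets, all lower (limma, adjusted p = 0.00124 for MSANTD4), and KBTBD3 by 0.38 without passing (limma, adjusted p = 0.0609). These neighbours were chosen for position. On the other side DDI1, PDGFD and DYNC2H1 were below the filter.

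**Figure D3:**
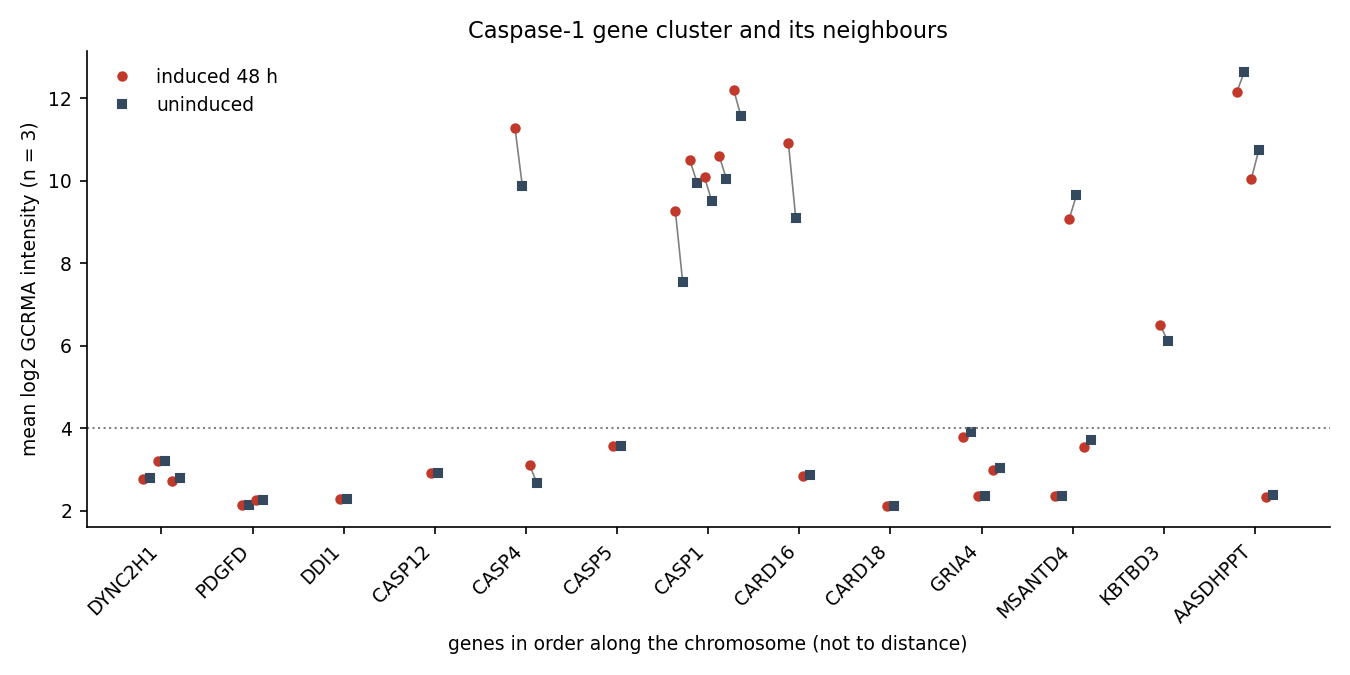
Mean log2 GCRMA intensity (n = 3) of every probe set of CASP1 and of the 6 genes on either side, in chromosomal order and not to distance, with induced (red circles) left of uninduced (dark squares) and the filter as a dotted line. Only protein-coding genes and CASP12 were counted as neighbours. CASP4, CASP1 and CARD16 are the genes of the caspase cluster with signal above 4, and all lie higher in induced samples, while MSANTD4 and AASDHPPT lie lower.

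CASP2, an initiator caspase that is activated in the PIDDosome, a complex that forms after genotoxic stress or surplus centrosomes, rose in 4 of 5 tested probe sets. The brightest, 226032_at, read 12.34, 12.45 and 12.34 in induced samples, against 11.72, 11.86 and 11.70 in uninduced samples. Its difference was 0.62 ± 0.07 (SE), 1.53-fold (limma, adjusted p = 3.05e-04). A dimmer one, 209811_at, read 8.20, 8.25 and 8.10 in induced samples, against 6.74, 7.20 and 7.29 in uninduced samples, a difference of 1.11 ± 0.15 (SE; limma, adjusted p = 5.05e-04). The uninduced arrays were more spread out here than the induced ones, with uninduced replicate 1 the lowest, as it also was in 208050_s_at and 34449_at. These differed by 0.82 ± 0.14 and 0.89 ± 0.23 (SE; limma, adjusted p = 0.00193 and 0.0126).

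The fifth tested CASP2 probe set, 226036_x_at, did not follow. It read 8.04, 7.99 and 7.93 in induced samples, against 8.11, 8.06 and 8.11 in uninduced samples, so that all induced arrays lay slightly below the uninduced ones. The difference was -0.11 (95% interval -0.25 to 0.04; limma, adjusted p = 0.163). Relative to the mean of the other 4, it lay at -0.20 ± 0.07 in induced and 0.77 ± 0.27 in uninduced samples (SD, n = 3 each), a description of a probe set picked for standing apart. Unlike calls within a gene were common, in 39.1% of the 4602 genes with over 1 tested probe set. The other 2 CASP2 probe sets, 209812_x_at and 211140_s_at, lay below the filter in both groups.

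CASP9, the initiator activated by the apoptosome, rose in its 1 tested probe set. It read 8.53, 8.59 and 8.45 in induced samples, against 7.95, 7.98 and 7.91 in uninduced samples (203984_s_at), a difference of 0.58 ± 0.06 (SE), 1.49-fold (limma, adjusted p = 2.08e-04). APAF1, which assembles into the apoptosome, read 11.35, 11.19 and 11.29 in induced samples, against 10.75, 10.93 and 10.79 in uninduced samples (204859_s_at). Its difference of 0.45 ± 0.08 (SE), 1.37-fold, was the smallest of the 19 rises (limma, adjusted p = 0.00182). The remaining 2 probe sets of CASP9 and 2 of APAF1 lay below the filter on all arrays.

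CASP6, the executioner caspase that cleaves nuclear lamin A, rose in both of its probe sets. The probe set 209790_s_at read 9.47, 9.55 and 9.55 in induced samples, against 9.15, 8.95 and 8.83 in uninduced samples, a difference of 0.55 ± 0.09 (SE; limma, adjusted p = 0.00165). The other, 211464_x_at, differed by 0.50 ± 0.07 (SE; limma, adjusted p = 7.13e-04). Both correspond to rises of 1.42-fold to 1.46-fold, with induced arrays closer together than uninduced ones.

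XIAP, which binds and blocks CASP9 and some executioners, rose in 5 of 5 tested probe sets. The brightest, 228363_at, read 12.02, 12.05 and 12.08 in induced samples, against 11.31, 11.33 and 11.27 in uninduced samples. With a difference of 0.74 ± 0.06 (SE), 1.67-fold, it had the smallest SE of all tested member probe sets (limma, adjusted p = 3.73e-05). The probe sets 225858_s_at and 225859_at differed by 0.72 and 0.75. In 2 further ones, 235222_x_at and 243026_x_at, replicate 3 was the highest array of both groups: 235222_x_at read 10.30, 10.15 and 10.90 in induced samples, against 9.71, 9.70 and 10.07 in uninduced samples. Their differences were 0.62 ± 0.21 and 0.70 ± 0.17 (SE; limma, adjusted p = 0.0342 and 0.0108). The call of 235222_x_at is weak: without uninduced replicate 1, uninduced replicate 2 or induced replicate 1 it did not pass (limma, adjusted p = 0.0923, 0.0941 and 0.0533). Without induced replicate 3 its difference was 0.40. With all arrays, the 5 estimates fell between 0.62 and 0.75, beside 0.45 to 0.58 for CASP9, APAF1 and CASP6, and the 95% intervals of the 2 sets of estimates overlap.

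The AGGTCA element of retinoic acid receptors was found in windows of 2 of the 7 member genes that have RefSeq promoter windows, XIAP and CASP9, and 1 of each is shown since RARA is part of the fusion. They are GRCh38.p14, plus strand, chrX:123859564-123859863 for XIAP and minus strand, chr1:15524741-15525040 for CASP9, with the match in capitals.
XIAP: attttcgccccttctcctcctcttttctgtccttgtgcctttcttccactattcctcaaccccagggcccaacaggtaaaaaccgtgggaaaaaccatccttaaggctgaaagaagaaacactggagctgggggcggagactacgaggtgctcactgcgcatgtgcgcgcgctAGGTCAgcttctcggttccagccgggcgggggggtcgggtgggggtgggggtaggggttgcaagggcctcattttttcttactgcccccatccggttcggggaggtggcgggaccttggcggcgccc
CASP9: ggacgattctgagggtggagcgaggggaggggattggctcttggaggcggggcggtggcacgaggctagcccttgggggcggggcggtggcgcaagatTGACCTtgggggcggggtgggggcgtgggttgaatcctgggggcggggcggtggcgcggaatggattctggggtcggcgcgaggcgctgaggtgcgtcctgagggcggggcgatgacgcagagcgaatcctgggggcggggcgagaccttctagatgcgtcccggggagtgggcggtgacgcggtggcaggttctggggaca
In XIAP the first base of the match lies 77 bases before the annotated start, and in CASP9 the element is on the opposite strand, 152 bases before the start. At least 1 match to it was found in 13.8% of all windows. That share is by window and the count above is by gene, so they do not compare directly. The 7 genes have 11 windows, and another XIAP window overlaps the one shown and holds the same match. The remaining XIAP window, chrX:123859803-123860102, holds a separate match on the opposite strand, 91 bases before its start. The other CASP9 window holds none. CASP1 has no window. No window of CASP2, CASP4, CASP6 or APAF1 held any of the 4 motifs. Whether any match bears on a change in transcript level was not tested.

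**Figure D4:**
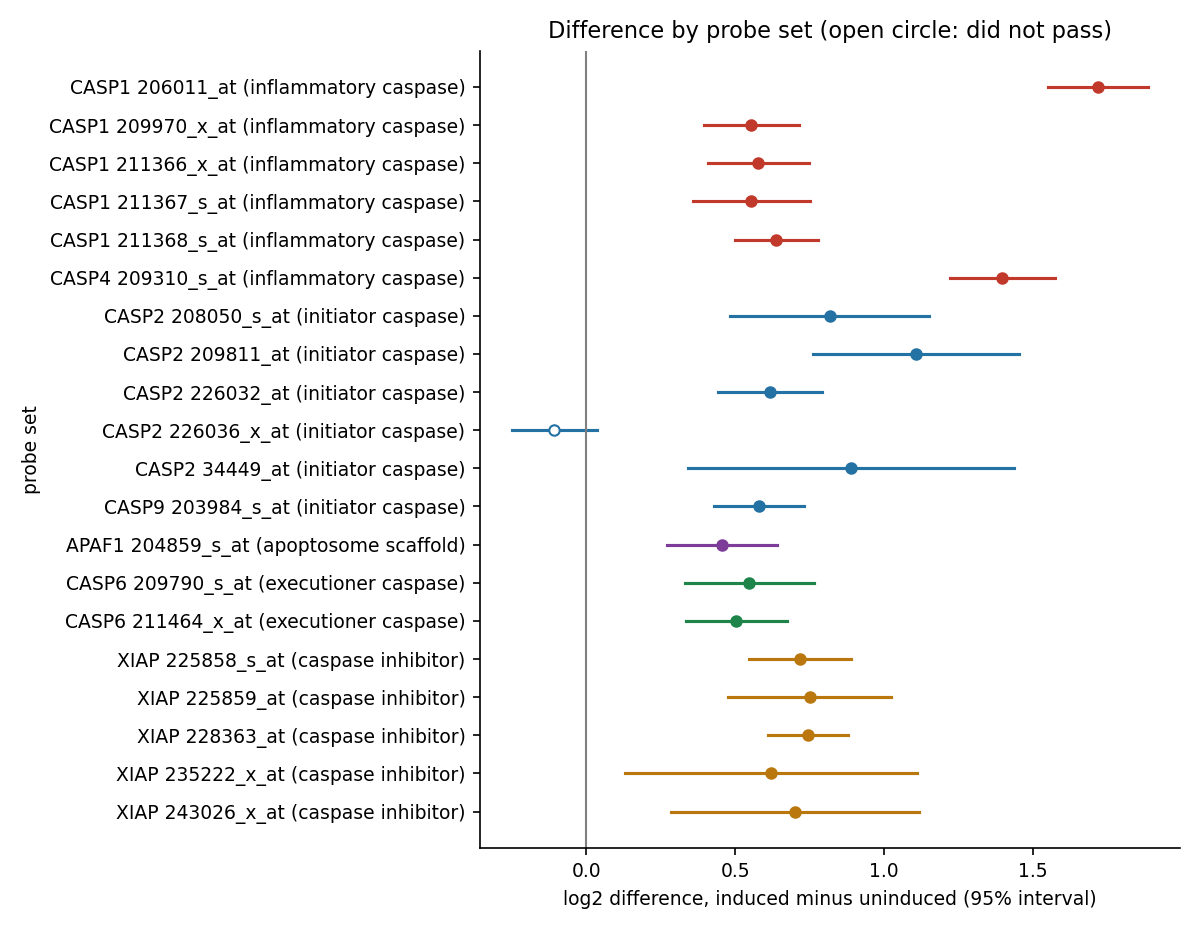
Log2 difference, induced minus uninduced, with its 95% interval for each of the 20 tested probe sets, coloured by role; a filled circle passed the test (limma, adjusted p under 0.05) and the open one did not. Most estimates crowd between 0.45 and 1.11, and CASP1 206011_at and CASP4 lie to the right of them.

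Ordered by size, CASP1 206011_at came first, followed by CASP4 and CASP2 209811_at, and the 95% intervals of each of these neighbours overlapped (1.55 to 1.88, 1.22 to 1.57 and 0.76 to 1.45). The tested genes with 1 symbol whose 6 centred values lay closest to CASP1 206011_at were ANKRD44, JAG1 and TSPAN31. Their Euclidean distances were 0.0720, 0.0831 and 0.114 over 6 arrays, which with 2 groups says little more than that they differed by a like amount, 1.69, 1.73 and 1.74.

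Around these members, a list of 50 genes of the same pathways was examined with 1 probe set each. Of the 32 measured, 13 rose, 11 fell and 8 did not pass, against 35.8% of all genes higher and 30.7% lower, and the median difference was -0.03, against 0.02 over all measured genes. CARD17 and BIRC3 were not analysed here. The wider list thus split in both directions, near the shares over all measured genes. No contrast with the members was tested, and members and list were chosen with earlier results of these data known. Genes named from it that changed by less than 1 on the log2 scale and are not CASP10, IL18, GSDMD, PYCARD, CYCS, DIABLO or XAF1 were chosen after their values were seen.

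Among other caspases CASP8, the initiator of death receptor signalling, read 11.09, 11.00 and 11.11 in induced samples, against 10.03, 9.98 and 10.12 in uninduced samples (213373_s_at), 2.03-fold higher (limma, adjusted p = 1.91e-05). CASP10, its close relative, read 5.40, 5.63 and 5.63 in induced samples, against 5.34, 4.81 and 4.13 in uninduced samples (limma, adjusted p = 0.0421), a call that was lost without any array but uninduced replicate 1 (0.0555 to 0.110; over all alternatives 0.00478 to 0.181). Together with CARD16, 3 of 3 measured genes of this group rose.

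Of 9 measured inflammasome sensors and adaptors 3 rose, 3 fell and 3 did not pass, close to the shares over all measured genes (35.8% higher and 30.7% lower). NLRP3, the sensor that recruits CASP1 in monocytes, was lower, at 4.86, 5.06 and 5.08 in induced samples, against 6.93, 7.02 and 6.61 in uninduced samples, a difference of -1.85 (207075_at; limma, adjusted p = 2.01e-05), or 3.61-fold. The other falls were NOD1 (221073_s_at, -0.51; limma, adjusted p = 0.0122) and RIPK2 (209545_s_at, -0.48; limma, adjusted p = 0.00252). The NOD1 call was lost in 1 of 14 alternatives, and the dimmer RIPK2 probe set 209544_at did not pass (-0.06). NEK7, a kinase that NLRP3 needs, was higher, at 13.14 ± 0.03 in induced and 11.72 ± 0.06 in uninduced samples (SD, n = 3 each), 2.68-fold (limma, adjusted p = 3.51e-06). CARD8, a sensor that activates CASP1, was higher in all 3 of its tested probe sets, by 0.85 to 1.21. AIM2, a sensor of cytosolic DNA, was the remaining rise (206513_at, 0.55; limma, adjusted p = 0.0293), a call lost in 8 of 15 alternatives (0.00455 to 0.127 over all of them). It read 4.04, 4.77 and 4.41 in induced samples, against 3.75, 3.86 and 3.95 in uninduced samples. All uninduced arrays lay below the filter, so AIM2 was tested through the induced arrays alone. With the uninduced level set at the filter it was at least 1.32-fold higher. PYCARD (ASC), the adaptor between sensors and CASP1, differed by -0.20 without passing (limma, adjusted p = 0.0669), but passed as lower in 5 of 15 alternatives (0.00352 to 0.197 over all of them). NLRP12 was counted by 223944_at, which did not pass (-0.32; limma, adjusted p = 0.0802). Its dimmer tested probe set, 1554952_s_at, was lower (-1.71; limma, adjusted p = 0.00715), with all induced arrays below the filter.

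NLRP1, NLRC4, NAIP, NLRP6 and NOD2 were below the filter. For the substrates of the inflammatory caspases, IL18 differed by 0.11 (limma, adjusted p = 0.268) and GSDMD, the pore-forming protein, by 0.37 (limma, adjusted p = 0.0319), a call lost without induced replicate 2 or 3 (0.0883 and 0.0886; over all alternatives 0.0181 to 0.148). IL1B failed the filter, and its probe set 205067_at read 4.01, 4.60 and 3.38 in induced samples, against 2.38, 2.48 and 2.50 in uninduced samples. The induced arrays lay above the uninduced ones there, and no test was made.

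Of 5 measured genes for mitochondrial proteins linked to apoptosis, not all of them partners of the apoptosome, 0 rose, 3 fell and 2 did not pass. Over all measured genes 35.8% were higher and 30.7% lower, and no difference from APAF1 and CASP9 was tested. CYCS, cytochrome c itself, read 14.12, 14.20 and 14.16 in induced samples, against 14.41, 14.44 and 14.31 in uninduced samples (208905_at), a difference of -0.23 (limma, adjusted p = 0.0187). The dimmer CYCS probe sets 229415_at and 244546_at differed by -0.68 and -0.94 (limma, adjusted p = 0.00117 and 1.14e-04). The call of 208905_at was lost without uninduced replicate 1 or 2 or induced replicate 1 or 3 (0.0606 to 0.0687). AIFM1, a mitochondrial flavoprotein, and ENDOG, a mitochondrial nuclease, were 2.04-fold and 2.13-fold lower (limma, adjusted p = 1.90e-04 and 4.51e-05). DIABLO (SMAC), which relieves the block by XIAP, differed by -0.22 (limma, adjusted p = 0.055) and passed as lower in 8 of 15 alternatives (0.00594 to 0.161 over all of them). HTRA2 differed by 0.13 without passing.

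Other inhibitors of apoptosis went both ways. BIRC2 (cIAP1), a ubiquitin ligase, rose by 0.82 and BIRC6 by 0.53. BIRC5 (survivin) rose by 0.29 in 202095_s_at (limma, adjusted p = 0.0309), while its other 3 tested probe sets did not pass, and that call was lost in 6 of 15 alternatives (0.0180 to 0.0872 over all of them). BIRC7 (livin) read 7.93, 7.91 and 7.88 in induced samples, against 9.20, 9.10 and 8.98 in uninduced samples, 2.27-fold lower (220451_s_at; limma, adjusted p = 1.53e-05). XAF1, an antagonist of XIAP, was lower, with differences of -0.26 (228617_at) and -0.31 (206133_at; limma, adjusted p = 0.0147 and 0.036). Without uninduced replicate 2 or induced replicate 3 the 228617_at difference did not pass (limma, adjusted p = 0.0551 and 0.0596).

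A group of 7 genes held substrates of executioner caspases and DFFB, the partner of the substrate DFFA. Of these 7, 3 rose, 3 fell and 1 did not pass, beside 35.8% higher and 30.7% lower over all measured genes. PAK2, a kinase cleaved in apoptosis, rose in its brightest probe set, 208877_at (0.52), while its other 4 tested probe sets did not pass (-0.25 to 0.19). LMNA, the lamin that CASP6 cuts, read 10.30, 10.20 and 10.19 in induced samples, against 6.48, 6.37 and 6.01 in uninduced samples (203411_s_at), 15.4-fold higher (limma, adjusted p = 1.15e-06). Of its 5 tested probe sets 4 rose and 214213_x_at did not pass. DFFA (ICAD), the inhibitor that executioners cleave to free the nuclease DFFB (CAD), fell in 3 of 3 tested probe sets, with differences of -1.11 to -1.33, and DFFB fell with a difference of -0.72.

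**Figure D5:**
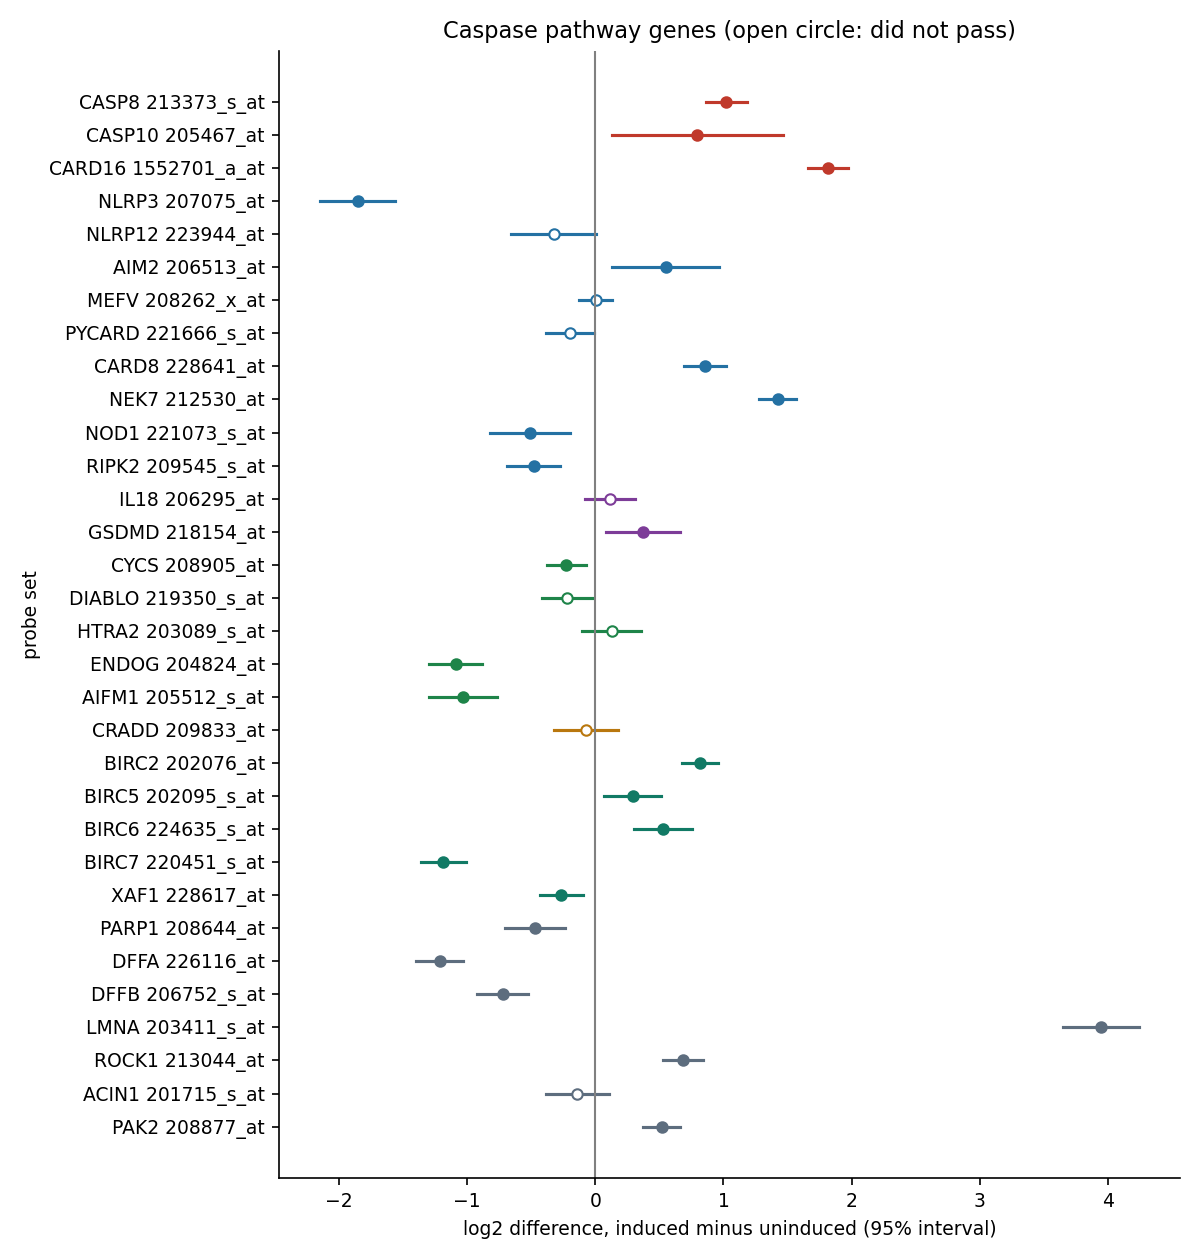
Log2 difference, induced minus uninduced, with its 95% interval for the 32 measured genes of the wider list, 1 probe set each, coloured by functional group; open circles did not pass the test. Genes lie on both sides of 0, with LMNA (3.94) at the right end and NLRP3 (-1.85) at the left.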

How the data were processed

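The authors deposited 1 intensity per probe set and array, on a linear scale, and the submitters' processing notes name GCRMA; its version and any further scaling were not stated. Samples were grouped by title. Of 54675 probe sets 62 controls were left out, the 6 values under 1 were raised to 1 and log2 was taken. The comparison used lmFit and eBayes (R 4.3.3, limma 3.58.1, two-sided, no covariates, 3 induced and 3 uninduced arrays); intervals are 95% intervals of that fit. The fit was also run on simulated data with the spread of these 20552 probe sets. It recovered 46% of changes of 0.5 on the log2 scale, 90% of changes of 1 and 100% of changes of 2 or 4. There were 8 wrong calls among 176. Far fewer probe sets were changed there than were called in the data (7112 higher and 5733 lower). The adjusted p depends on that share, so these percentages are not the recovery reached here.

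Genes were named from GEO's platform annotation; all 30 member probe sets had a current symbol, and 1 more that names a member with another gene was not used. In the wider list a gene was represented by its brightest tested probe set. The naming rule took all members, list genes called with a difference of at least 1, and CASP8, CASP10, IL1B, IL18, GSDMD, PYCARD, NLRP3, CYCS, DIABLO and XAF1. The genes AIM2, BIRC2, BIRC5, BIRC6, CARD8, DFFB, HTRA2, NLRP12, NOD1, PAK2 and RIPK2 were named after their values were seen. Members and lists were chosen with earlier results of these data known. Promoter motifs and gene order come from RefSeq tables (GRCh38.p14), which hold 7 of the 8 members' promoters; the alignment (Biopython 1.88) scored 1 per match, -2 per gap opened and -0.5 per gap extended. Alternatives covered the filter, scaling, variance model, pseudocount, probe set type and each array.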

Additional observations from a re-analysis of the deposited data

How the results depend on the processing

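Of the 20 tested member probe sets 16 kept their call under every alternative that could test them, and no member changed sign. The count of rising members was 18 after quantile normalization, 18 with array weights, 18 after median centring over the tested probe sets (chosen after seeing the data), 16 with no filter, 17 with a filter at a log2 value of 6, and 18 to 19 leaving out each array in turn. Quantile normalization made CASP2 226036_x_at a lower call (-0.19; limma, adjusted p = 0.0487), so 1 member fell there; under all other alternatives it did not pass, with adjusted p up to 0.413. CASP2 34449_at did not pass with array weights (limma, adjusted p = 0.0533) or no filter (0.0707), XIAP 243026_x_at with no filter (0.0585), and XIAP 235222_x_at with quantile normalization (0.0596), tested-set centring (0.0826) or no filter (0.148). With the _x_at and _s_at probe sets (those that may match more than 1 transcript) left out, 6 of 6 remaining members rose, and CASP4, CASP6, CASP9 and APAF1 could not be tested; fewer probe sets entered that fit, with 4365 higher and 3172 lower in all, and 6 falling genes in the wider list. Over all probe sets the split was 7112 higher and 5733 lower, but 6759 and 8077 after quantile normalization and 6579 and 7106 after tested-set centring. In the wider list, 13 rises and 11 falls became 10 and 15 after quantile normalization, 12 and 15 after tested-set centring, 13 and 15 with array weights, and 9 to 12 and 9 to 14 leaving out each array. With the replicate number as a block, 19 members rose and 7099 and 5710 probe sets were called; the block changed no member's call. Same-numbered arrays did not all deviate together (r = -0.17, 0.00046 and 0.18), so the numbers were not taken as pairs. Dim probe sets (CASP5 and 9 others) limit what could be seen.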
